A study of Populus trichocarpa with 12 samples.

Results

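The genes described here are the 4 fibre-type wood NAC switches of Populus trichocarpa (black cottonwood): WND1A (Potri.011G153300), WND1B (Potri.001G448400), WND2A (Potri.014G104800) and WND2B (Potri.002G178700). They were chosen by identifier and make up 4 of the 41335 genes in the count table. All 4 passed the filter on low counts, which 26943 genes passed. The names are published designations that the deposited table does not give.

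RNA was sequenced from stem differentiating xylem, the layer of young wood scraped from debarked stems, of plants kept for 3 months in a greenhouse. Day 0 plants were fully irrigated, with soil at 74% and xylem at 80.6% water. Plants left dry for 5 days (mild drought) had 33% water in soil and 75.3% in xylem, and plants left dry for 7 days (severe drought) had 29% and 74.3%. Each day is represented by 4 libraries, all from xylem and with no transgene or genotype difference given for them. Watered plants of days 5 and 7 were not analysed here, so drought cannot be told apart from plant age and day of harvest. The labels do not say which plant or planting batch gave each library, so p-values measure only the spread between libraries.

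NAC factors of the VNS group are the top-level switches of secondary wall formation. In Arabidopsis the NST/SND branch acts in fibres and the VND branch in vessels. Both turn on MYB factors and, with them, the genes for cellulose, xylan and lignin synthesis. WND1 and WND2 are the NST/SND branch in poplar, and each exists as a pair of copies left by the genome duplication shared by poplars and willows. In hybrid aspen, loss of this branch removes the thick walls of wood fibres.

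Total counts per library lay between 9.35 and 19.22 M. Day 7 replicate 2 stood apart from the other day 7 libraries in wood genes: its 5 secondary wall cellulose synthase genes summed to 820 CPM (counts per 1 M scaled counts), where replicates 1, 3 and 4 of that day had 103 to 120 CPM. Day 0 replicate 2 held the highest such sum of its day, 10180 CPM against 2762 to 5318 CPM.

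All 4 WND genes were lower under drought on both days. WND1A kept the most of its transcript, while WND1B, WND2A and WND2B nearly vanished from some libraries. On day 5 the falls ranged from 4.3-fold (WND1A) to 21.9-fold (WND2A). On day 7 they ranged from 3.09-fold (WND1A) to 32.3-fold (WND2B). No WND gene passed the test between day 7 and day 5.

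WND1A had 117, 205, 177 and 162 CPM in the day 0 libraries (replicates 1 to 4). It had 34.0, 50.5, 50.1 and 19 CPM on day 5 and 58.6, 70.6, 48.4 and 36.2 CPM on day 7. Every drought library lay below every day 0 library, and the libraries of the drought days overlapped. The order of the means was day 0 (165 CPM ± 36.9, SD, n = 4), then day 7 (53.4 CPM ± 14.7), then day 5 (38.4 CPM ± 15.1). Day 5 and day 7, neighbours in that order, were not told apart.

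WND1B, the other copy of this pair, had 91.3, 174, 124 and 133 CPM on day 0. It had 5.65, 24.0, 16.4 and 6.31 CPM on day 5 and 1.20, 21.9, 3.43 and 1.45 CPM on day 7. Day 7 replicate 2 alone lay among the day 5 values, and the other day 7 libraries lay below all of them. The mean was 131 CPM ± 34.1 (SD, n = 4) on day 0, 13.1 CPM ± 8.79 on day 5 and 6.99 CPM ± 9.98 on day 7. In P. trichocarpa this gene is known to give rise to a splice variant that retains an intron. Counts per gene do not separate such transcripts.

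WND2A had 24.5, 35.4, 26.8 and 29.6 CPM on day 0. It had 0.942, 1.96, 1.43 and 0.846 CPM on day 5, where it had 11 to 39 counts per library. Its day 7 values were 0.479, 2.15, 1.96 and 0 CPM, with 0 to 32 counts. The groups of drought days overlapped widely. The count of 0 in day 7 replicate 4 allows up to 3 counts, or 0.242 CPM, by counting error alone.

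WND2B had 20.5, 25.7, 20.2 and 24.0 CPM on day 0. It had 0.706, 0.905, 4.24 and 1.08 CPM on day 5 and 0.638, 1.19, 0.613 and 0.323 CPM on day 7. Day 5 replicate 3, with 68 counts, stood above the other drought libraries, which held 4 to 18 counts each. The mean was 22.6 CPM ± 2.68 (SD, n = 4) on day 0, 1.73 CPM ± 1.68 on day 5 and 0.692 CPM ± 0.364 on day 7.

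**Figure D1:**
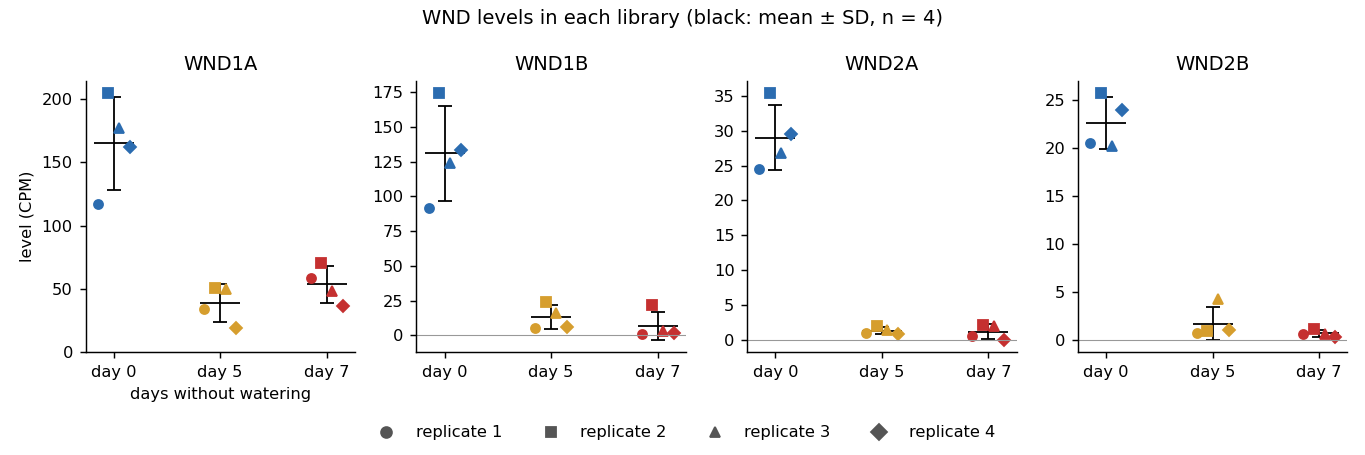
Level of each WND gene in every library, in CPM on a linear axis from its own scale, over days 0, 5 and 7 without watering (points: libraries, shape by replicate; black: mean ± SD, n = 4). All drought libraries sit below all day 0 libraries for each gene, and WND1A keeps the largest share of its day 0 level.

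The comparison of day 5 with day 0 asked what mild drought changed. All 4 WND genes fell, where 28.8% of all 26943 tested genes were called lower. In all 4, every day 5 library lay below every day 0 library, as it did for 27% of tested genes. WND1A changed by -2.10 on the log2 scale (SE 0.32; 95% interval -2.80 to -1.41; edgeR adjusted p = 0.000226). WND1B changed by -3.31 (SE 0.85; edgeR adjusted p = 0.00588), the widest error of the 4.

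The log2 fold change of WND2A was -4.45 (SE 0.67; adjusted p = 0.000215 in edgeR), and 1.28% of tested genes had a lower fold change. WND2B changed by -3.69 (SE 0.53; edgeR adjusted p = 0.000164), and by -4.64 without day 5 replicate 3. For WND1B and WND1A, 2.96% and 7.6% of tested genes had a lower fold change. The median WND log2 fold change was -3.50, against -0.01 over all tested genes.

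The comparison of day 7 with day 0 set severe drought against full irrigation. Again all 4 WND genes fell, where 23.6% of tested genes were called lower, and none of the 4 overlapped between days, where 21.6% of tested genes lay wholly below. WND1A changed by -1.63 on the log2 scale (SE 0.31; 95% interval -2.32 to -0.94; edgeR adjusted p = 0.00124). WND1B changed by -4.23 (SE 0.89; 95% interval -6.18 to -2.27; edgeR adjusted p = 0.0022). The change was -5.94 once day 7 replicate 2 was left out, and limma-voom with all libraries gave -5.20.

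The log2 fold change of WND2A was -4.63 (SE 0.68; adjusted p = 0.000216 in edgeR), and -5.63 with limma-voom. WND2B changed by -5.02 (SE 0.58; edgeR adjusted p = 4.86e-05), and 1.35% of tested genes had a lower fold change. The median over the 4 genes was -4.43, against 0.03 over all tested genes. Without day 7 replicate 2 it was -5.20.

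Day 7 was then set directly against day 5. Here 19.9% of tested genes were called lower and 22.3% higher, and none of the 4 WND genes was called in edgeR (1 of 4, WND2B, had an unadjusted p under 0.05, at 0.0379). DESeq2 called 1, WND2B, and limma-voom 0. WND1A had a log2 fold change of 0.48 (95% interval -0.20 to 1.15; edgeR adjusted p = 0.231), the only positive value of the 4. WND1B was at -0.92 (95% interval -2.69 to 0.85; edgeR adjusted p = 0.381). It passed the test as lower on day 7, at -2.66, once day 7 replicate 2 was left out (edgeR adjusted p = 0.00561).

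WND2A was at -0.17 on the log2 scale between these days (edgeR adjusted p = 0.851; 95% interval -1.63 to 1.28). Its sign was not stable, with 0.24 when day 7 replicate 4 was left out. WND2B was at -1.33 (95% interval -2.56 to -0.09; edgeR adjusted p = 0.0788). It was called lower without day 5 replicate 1 (edgeR adjusted p = 0.0463) and in DESeq2 (adjusted p = 0.0419), and was at -0.38 without day 5 replicate 3.

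**Figure D2:**
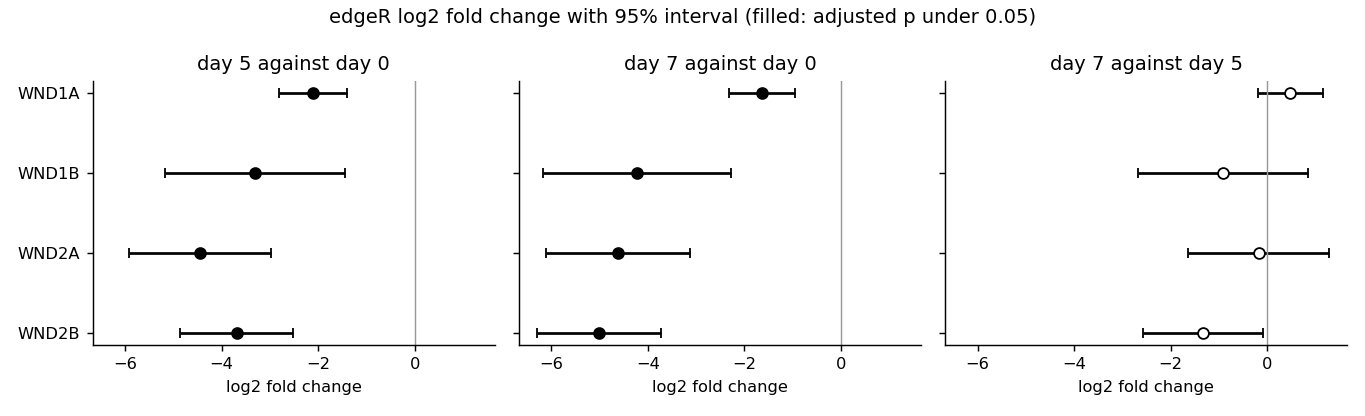
Log2 fold change of each WND gene with its 95% interval from edgeR, in 3 panels: day 5 against day 0, day 7 against day 0 and day 7 against day 5 (filled points: adjusted p under 0.05). The 4 genes are called lower on both days against day 0, and none is called between day 7 and day 5.

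The make-up of the WND transcripts shifted towards WND1A. The summed counts of the 4 genes stood at 348 CPM ± 76.4 (SD, n = 4) on day 0, 54.5 CPM ± 24.2 on day 5 and 62.3 CPM ± 24.4 on day 7. The part held by WND1A was 47.5% ± 2.21 on day 0, 71.7% ± 7.35 on day 5 and 88.6% ± 10.4 on day 7. By library, its share was 46.2%, 46.6%, 50.8% and 46.4% on day 0. It was 82.3%, 65.3%, 69.4% and 69.8% on day 5 and 96.2%, 73.7%, 89.0% and 95.3% on day 7. Day 7 replicate 2 had the lowest share of its day (95% Clopper-Pearson interval 71.1% to 76.1%, for counting error only), and it overlapped with the day 5 libraries. The share of WND1B was 37.4% ± 1.82 on day 0, 22.7% ± 7.07 on day 5 and 8.73% ± 9.55 on day 7. WND2A made up 8.47% ± 0.86 on day 0, 2.48% ± 0.476 on day 5 and 1.66% ± 1.6 on day 7. WND2B made up 6.65% ± 1.08, 3.18% ± 2.16 and 1.07% ± 0.168 on the same days. Such shares are of counts, which also scale with transcript length, and do not order the genes by transcript number.

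**Figure D3:**
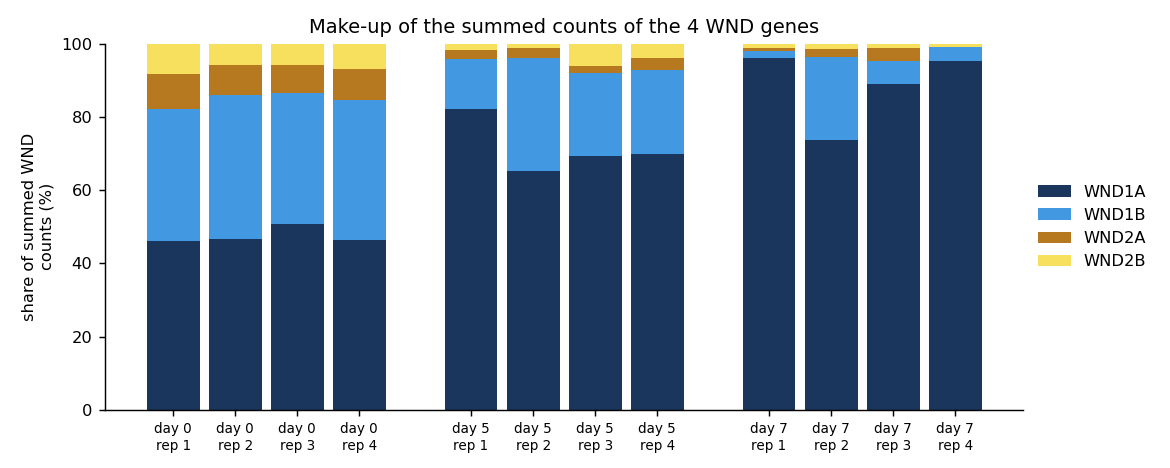
Share of the summed counts of the 4 WND genes held by each gene (percent, stacked bars from 0 to 100), in each of the 12 libraries, ordered by day and replicate. WND1A holds 46.2% to 50.8% on day 0, 65.3% to 82.3% on day 5 and 73.7% to 96.2% on day 7.

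The copies of a pair were compared within each library, where library scaling plays no part. The ratio of WND1A to WND1B counts was 1.28, 1.18, 1.42 and 1.21 on day 0, 5.98, 2.10, 3.05 and 3.00 on day 5 and 47.4, 3.22, 14 and 24.2 on day 7. Neither drought day overlapped with day 0, while day 7 replicate 2 lay among the day 5 libraries. The mean log2 ratio was 1.71 ± 0.63 on day 5 against 0.35 ± 0.12 on day 0 (SD, n = 4 each), a difference of 1.37, or 2.58-fold. On day 7 it was 3.92 ± 1.65, a difference of 3.57 from day 0, or 11.9-fold (4.31 without day 7 replicate 2). In both comparisons the two-sided exact permutation test gave p = 0.0286, the smallest that 4 against 4 libraries allow, and p = 0.0857 after adjustment over the 6 ratio tests. The difference held in all 4 libraries of each drought day but did not pass that correction. At this smallest p, the adjusted value cannot fall under 0.05 unless a test of the WND2 pair also gives that p. Not passing it therefore does not decide whether the WND1 ratio changed.

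Between day 7 and day 5 the log2 ratio of WND1A to WND1B differed by 2.20, or 4.6-fold (exact permutation p = 0.0571, adjusted 0.114), and by 2.95 without day 7 replicate 2. The WND2 pair showed another picture. Its ratio, WND2A to WND2B, was 1.19, 1.38, 1.32 and 1.23 on day 0, a narrow spread. On day 5 it was 1.32, 2.14, 0.343 and 0.793, and on day 7 it was 0.765, 1.77, 3.10 and 0.111. These values scattered to both sides of day 0, on counts of 0 to 68 per gene and library.

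The mean log2 ratio of the WND2 pair was -0.10 ± 1.13 on day 5 and -0.28 ± 2.10 on day 7, against 0.36 ± 0.10 on day 0 (SD, n = 4 each). The exact permutation p was 0.571 for day 5 and 0.714 for day 7, each against day 0, and 0.886 between day 7 and day 5 (adjusted 0.857, 0.857 and 0.886). An unequal change of the WND2 copies was not detectable against this spread between libraries. Copies of a pair are similar in sequence, and how the authors' counting treated reads that match both is not given in the sources used here. No other gene had counts identical to those of a WND gene in all 12 libraries.

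**Figure D4:**
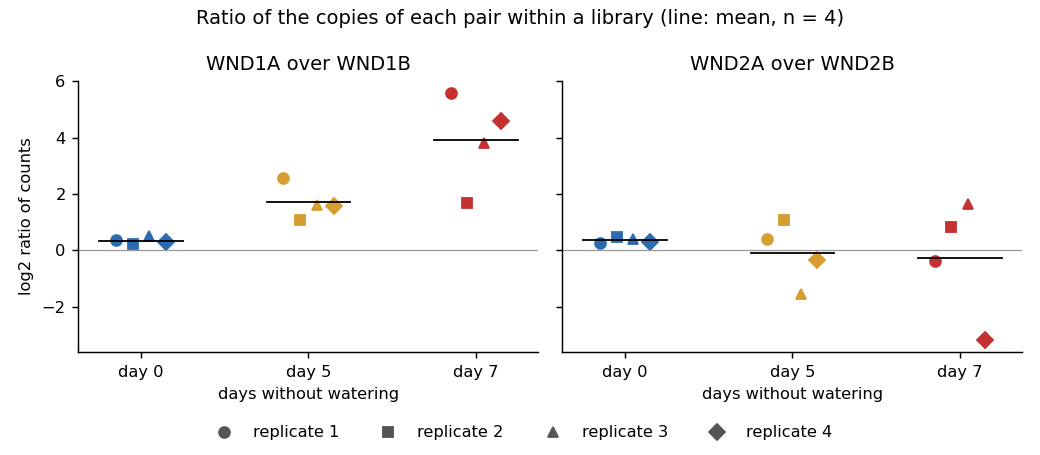
Log2 ratio of the counts of the copies of each pair within a library, with 0.5 count added to each gene, over days 0, 5 and 7 (points: libraries, shape by replicate; line: mean of 4). The WND1A to WND1B ratio lies higher in every drought library than on day 0, and the WND2A to WND2B ratio scatters around its day 0 values.

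The likeness of each gene to all others was measured as the root mean square difference of log2 CPM over the 12 libraries, each gene centred on its own mean, as a description. By this measure WND1B, WND2A and WND2B ranked near each other, though at differences of 0.865 to 0.943 log2 units. WND2A had WND1B at rank 34 and WND2B at rank 51 of 26942 genes, and WND1B had WND2A at rank 97 and WND2B at rank 152. WND2B had WND2A at rank 226 and WND1B at rank 317. For WND1A the ranks were not mutual. Its own copy WND1B ranked 22019th for it, while WND1A ranked 1920th for WND1B, 1655th for WND2A and 1670th for WND2B. The measure reads the size of the change as well as its course. The 12 libraries fall into 3 days with large differences, so many genes that fell share much of this pattern.

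The gene nearest to WND1A was Potri.003G136000, at 0.271 log2 units. It changed by -2.03 on day 5 and by -1.94 on day 7 against day 0 (edgeR adjusted p = 0.000521 and 0.000824). The nearest to WND1B was Potri.009G089800, at 0.505, with changes of -4.01 and -5.48 (edgeR adjusted p = 0.000312 and 8.96e-05). For WND2A it was Potri.012G019700, at 0.524, with changes of -5.01 and -5.54 (edgeR adjusted p = 9.63e-06 and 6.68e-06). For WND2B it was Potri.016G061000, at 0.407, with a change of -3.43 on day 5 (edgeR adjusted p = 5e-04). On day 7, Potri.016G061000 had 0.0796 CPM in replicate 2 and 0 in the other 3 libraries, against 0.154 to 0.934 CPM on day 5 and 3.17 to 5.74 CPM on day 0. It was called lower on day 7 than on day 5 (edgeR adjusted p = 0.0106), and WND2B was not. With a prior count of 0.5 in place of 2 its difference from WND2B was 0.781. Under the alternatives tried for this measure, the difference of Potri.012G019700 from WND2A reached 0.746. Each of these 4 genes was picked for its likeness over the same libraries, so its fall follows from that choice and is no separate evidence. The files give no name for any of them. Among the 100 genes nearest to WND1B were 6 of the 47 wood genes described next, led by Potri.016G086400 of the xylan list at rank 14. Among the 100 nearest to WND1A, WND2A or WND2B there was none. The lists hold only 46 of the 26943 tested genes, so that absence says little. The nearest wood gene ranked 164th for WND1A, 218th for WND2A and 332nd for WND2B.

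Genes around the WND switches in the wood programme were taken as 6 lists of 47 identifiers, grouped by published designations that the files do not give. On the vessel side, few genes of the VND clade of NAC factors were called on day 5. Of its 8 genes 7 were tested, and the 1 that passed was higher, where 28.8% of tested genes were lower and 29.9% higher. The median log2 fold change was -0.58, against -3.50 for the WND genes. Without day 5 replicate 3, 2 were higher. The higher gene, Potri.013G113100, had 2.84 CPM ± 1.44 on day 5 against 0.0506 CPM ± 0.0641 on day 0 (SD, n = 4 each). No day 0 library exceeded 0.134 CPM, so it passed the low-count filter only through drought libraries, those of day 5 among them. On day 7, 2 of the 7 fell and 2 were higher, where 23.6% of tested genes were lower and 27.5% higher, and the median was -0.84. Both shares of the clade lie near those of all genes. Without day 7 replicate 2, 5 were lower and 1 higher, and without day 0 replicate 3 only 1 was higher. The 2 that fell, Potri.005G116800 (-2.72) and Potri.007G014400 (-2.09), were also lower on day 7 than on day 5.

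Among the second-level MYB factors, which act directly below the NAC switches, 2 of 4 fell on day 5 (median -1.45) and 3 of 4 on day 7 (median -2.87; 4 of 4 without day 7 replicate 2, median -3.57). The MYB count on day 5 was 3 without day 0 replicate 1. Over all tested genes, 28.8% were lower and 29.9% higher on day 5, and 23.6% were lower and 27.5% higher on day 7. Potri.009G053900 had 9.57 CPM ± 0.781 on day 5 and 2.00 CPM ± 1.96 on day 7, against 33.9 CPM ± 16.0 on day 0 (SD, n = 4 each). It was also lower on day 7 than on day 5, by -2.27 (edgeR adjusted p = 0.00644). Of the 4 NAC factors of SND2 and SND3 type, 2 fell and 1 was higher on day 5 (median -1.67; 3 fell with day 0 replicate 1 or day 5 replicate 3 left out), and 3 fell and 1 was higher on day 7 (median -2.96). On day 7, 2 fell when any 1 of day 0 replicates 2 and 3 and day 7 replicates 1 and 4 was left out, and 0 were higher with day 0 replicate 1 or 4 left out. Potri.007G135300 changed most, by -3.36 on day 5 and by -5.55 on day 7 (edgeR adjusted p = 0.00203 and 0.000224). Potri.004G049300 ran the other way, by 0.84 and 0.56 (edgeR adjusted p = 0.00288 and 0.028).

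The wall synthesis genes stand at the end of the cascade. On day 5, of the 5 secondary wall cellulose synthase genes 3 fell (median -2.04), of the 6 xylan synthesis genes 4 fell and 1 was higher (median -2.34), and of the 20 monolignol synthesis genes 15 fell (median -1.24), all beside a WND median of -3.50. Of all tested genes, 28.8% were lower and 29.9% higher. On day 7 the calls were 5 of 5 (median -4.48), 6 of 6 (median -5.20) and 19 of 20 (median -2.99), all lower, where 23.6% of tested genes were lower. The day 5 medians moved furthest without day 0 replicate 2, to -1.47 (cellulose), -1.62 (xylan) and -0.99 (monolignol). With any single library left out, 3 cellulose synthase genes fell, and 11 to 15 monolignol genes, with 11 without day 0 replicate 2. The xylan count was 3 without day 0 replicate 2 or day 5 replicate 1 or 4. It was 5 without day 0 replicate 1 or day 5 replicate 3. The 1 higher xylan call was lost without day 0 replicate 4 or day 5 replicate 4. The xylan median on day 5 was -2.96 without day 5 replicate 3. On day 7 the medians of the cellulose and xylan lists were -3.84 and -4.56 without day 0 replicate 2, and -5.28 and -5.90 without day 7 replicate 2.

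Between day 7 and day 5, where no WND gene was called, 4 of 5 cellulose synthase genes, 5 of 6 xylan genes and 16 of 20 monolignol genes were lower on day 7, as were 19.9% of tested genes. Their medians were -2.38, -2.85 and -1.56, against -0.55 for the WND genes and 0.01 over all tested genes. Leaving out day 5 replicate 1, 2 or 3 or day 7 replicate 1, 3 or 4 brought the cellulose count to 3. The monolignol count ranged from 15 to 18 with single libraries left out. Without day 7 replicate 2 the cellulose count was 5, with a median of -3.63, and the WND median was -1.15, with 1 WND gene called. Without day 5 replicate 3 the xylan median was -2.26. Of the MYB and SND2/SND3-type lists 2 genes each were lower, and leaving out single libraries brought either count to 1 in several cases (the SND2/SND3-type count was 3 without day 7 replicate 2). On day 5 WND2A and WND2B already averaged 1.3 and 1.73 CPM, a level at which a further fall is hard to detect. WND1A and WND1B averaged 38.4 and 13.1 CPM on that day, and the cellulose and xylan lists summed to means of 1396 and 338 CPM. The comparisons between days share libraries, and whether the wall genes and the WND genes differed in how far they moved was not tested.

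**Figure D5:**
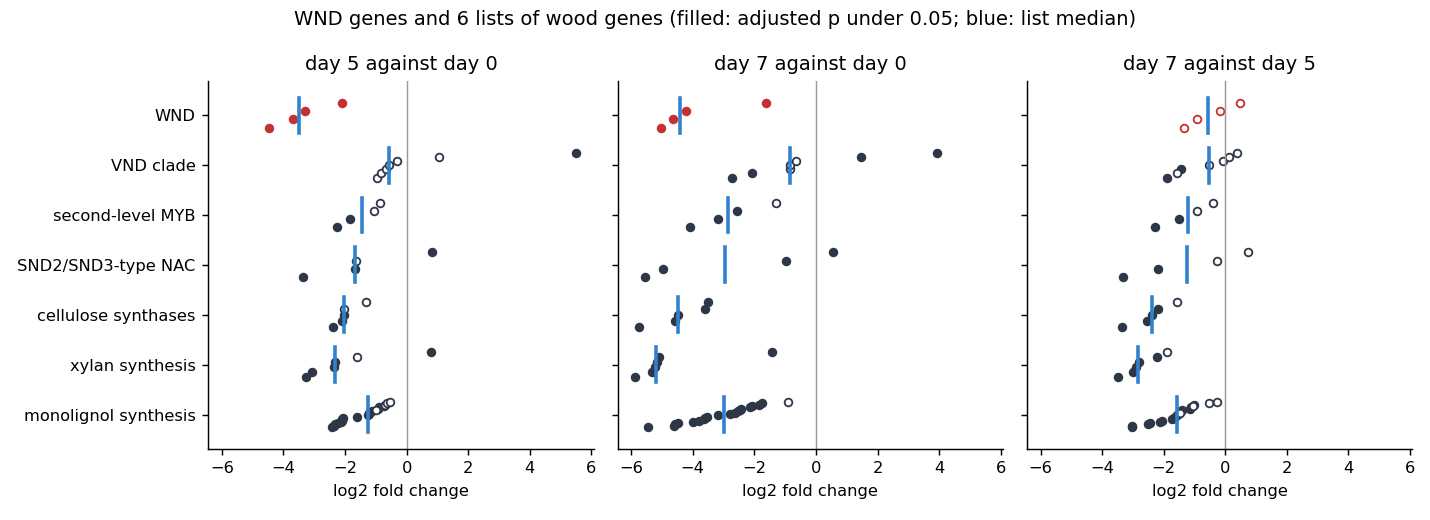
Log2 fold changes from edgeR of the 4 WND genes and of 6 lists of wood genes, in 3 panels for day 5 against day 0, day 7 against day 0 and day 7 against day 5 (points: genes, filled where adjusted p is under 0.05; blue line: list median). The WND median is -3.50 on day 5 and -4.43 on day 7, and between day 7 and day 5 the WND genes lie between -1.33 and 0.48 while the cellulose and xylan lists lie at medians of -2.38 and -2.85. WND2A and WND2B already averaged 1.3 and 1.73 CPM on day 5, where a further fall is hard to detect.

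In bulk xylem, fewer cells of a type and less RNA per cell cannot be told apart. Markers of the zones of wood-forming tissue, 8 genes named from published designations, were read in the same fit. On day 5, 4 of the 8 fell, and the other 4 were not called, where 28.8% of tested genes were lower and 29.9% higher. The 4 were ANT (Potri.002G114800) and both copies of WOX4 (Potri.014G025300 and Potri.002G124100), which mark the cambium, and EXPA1 (Potri.001G240900), which marks expanding xylem. CDC2 (Potri.016G142800), also a cambium marker, did not fall, at 0.87 on the log2 scale (edgeR adjusted p = 0.16). The larger WOX4 copy, Potri.014G025300, had 9.31 CPM ± 3.30 on day 5 and 3.73 CPM ± 2.15 on day 7, against 116 CPM ± 27.4 on day 0 (SD, n = 4 each). EXPA1 had 7.38 CPM ± 5.31 and 7.98 CPM ± 7.68, against 256 CPM ± 142.

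On day 7, both WOX4 copies, EXPA1 and CesA8-B (Potri.004G059600), a gene of wall-forming xylem, fell, and ANT did not pass the test against day 0. That is 4 of 8, where 23.6% of tested genes were lower. CesA8-B is also a member of the cellulose synthase list, so its fall was already counted there. BFN1 (Potri.011G044500), which marks xylem undergoing cell death, was higher, with 8.13 CPM ± 7.02 on day 7 against 2.65 CPM ± 0.618 on day 0 (SD, n = 4 each; edgeR adjusted p = 0.0253), where 27.5% of tested genes were higher. That call was lost when any 1 of day 0 replicates 1, 2 and 4 and day 7 replicate 2 was left out. Between day 7 and day 5, where no WND gene was called, ANT was higher on day 7 by 4.20 on the log2 scale (edgeR adjusted p = 0.00176), with 1.91 CPM ± 1.58 on day 7 against 0.0955 CPM ± 0.0678 on day 5 (SD, n = 4 each). BFN1 was higher by 2.87 (edgeR adjusted p = 0.00245). Of all tested genes, 22.3% were higher and 19.9% lower. The WOX4 copy Potri.014G025300 was lower, by -1.30 (edgeR adjusted p = 0.0166), and was not called without day 5 replicate 3. Without CesA8-B, the other 7 markers summed to 264 to 552 CPM on day 0, 12.5 to 33.0 CPM on day 5 and 24.5 to 24.9 CPM on day 7. With it, the 8 summed to 828 to 3247 CPM, 94.0 to 530 CPM and 35 to 375 CPM. The narrow day 7 sum of the 7 markers does not show a steady make-up. On that day BFN1 spanned 2.71 to 18.1 CPM and EXPA1 0.796 to 15.9 CPM. The phloem marker SUS6 (Potri.004G081300) averaged 0.546 CPM on day 0, 0.792 CPM on day 5 and 1.38 CPM on day 7, and the cambium marker CDC2 (Potri.016G142800) did not exceed 1.65 CPM in any library. Neither was called in any of the 3 comparisons. No marker was at 0 in a whole group. The part of a changed make-up of zones in the fall of the WND genes was not tested.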

How the data were processed

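What the authors deposited is a table of raw counts, whole numbers of reads per gene, for 41335 genes in 12 libraries and without any scaling. Per the submitters' processing notes, reads went through TopHat. No version, genome build, counting program or strand setting was found in the labels or the file. All 12 count columns were used.

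The test was the quasi-likelihood test of edgeR 4.0.16 (R 4.3.3), after filterByExpr at a minimum count of 10 and TMM scaling, with a mean per day and all 12 libraries in 1 model. Benjamini-Hochberg adjustment ran over 26943 genes, and adjusted p under 0.05 was called. Each SE was obtained by dividing the size of the log2 fold change by the root of its F statistic. The fit was tested on simulated data. CPM used TMM-scaled library sizes, and log2 CPM a prior count of 2. Ratios within a pair had 0.5 count added to each gene and were compared by two-sided exact permutation tests. Libraries of the same day differed by more than sampling noise (chi-square of 10.42 to 77.68 per degree of freedom). Figures used matplotlib 3.10.9 in Python 3.11.15.

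The 4 genes and all lists were chosen with earlier results of these data known. The text names the 4 genes, the gene most like each, and from each list at most the 2 members with the smallest adjusted p in a comparison, or any member of lists of 8 or fewer. As alternatives, TMM was replaced by RLE or upper-quartile scaling, the filter was dropped or set to 1 CPM in 4 libraries, and edgeR was replaced by DESeq2 1.42.0 or limma-voom (limma 3.58.1). Fits with only the 2 groups compared, with replicate number as a block and with each library left out were also made. For ratios, 1 added count and a paired test were tried.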

Additional observations from a re-analysis of the deposited data

Results flagged for a closer look

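Values of the 4 genes and of both ratios were examined in 18 groups of 4 libraries, in which a library was marked when its gap to the nearest other, as a share of the range, exceeded Dixon's 95% critical value. Chance marks about 1 in 20 independent groups, and these groups share libraries. There were 2 such cases. WND1B stood at 21.9 CPM in day 7 replicate 2, where replicates 1, 3 and 4 had 1.20 to 3.43 CPM. In the same library the cellulose synthase genes summed to 820 CPM, and to 103 to 120 CPM in those 3. WND2B stood at 4.24 CPM in day 5 replicate 3, where replicates 1, 2 and 4 had 0.706 to 1.08 CPM. Its copy WND2A, at 1.43 CPM there, lay within the range of that day. The cause of either was not tested.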

How the results depend on the processing

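The 4 WND genes were called lower on day 5 and on day 7 against day 0 under every alternative and with any single library left out, and counts over the 47 list genes and over all tested genes stayed within 1.5 times. Between day 7 and day 5 the number called was 1 with DESeq2, and 0 to 1 with single libraries left out. WND2A, at -0.17 between these days, was at 0.11 without day 5 replicate 2, 0.08 without day 7 replicate 1 and 0.24 without day 7 replicate 4, in a range of -0.60 to 0.24. The log2 ratio of WND2A to WND2B between day 7 and day 5, at -0.18, was 0.025 with 1 count added, and ranged from -0.81 to 0.79 with libraries left out (0.22 without day 5 replicate 2, 0.79 without day 7 replicate 4). It ranged from -0.85 to 0.03 for day 5 and from -1.27 to 0.34 for day 7 against day 0 (0.03 without day 5 replicate 3, 0.34 without day 7 replicate 4). The cause was not tested. The WND1A to WND1B difference ranged from 1.08 to 1.58 on day 5, from 3.02 to 4.31 on day 7 and from 1.65 to 2.95 between these days.

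The labels do not say whether same-numbered libraries share more than a number. Their deviations from the day means correlated at -0.17 to 0.49, with 4 of 12 pairs over 0.1, and 4 of 12 correlated best with their own number. The value of 0.49 was that of day 7 replicate 2 with day 5 replicate 2. With replicate number as a block, 4 WND genes were called on day 5, 4 on day 7 and 0 between these days, with 34, 43 and 36 list genes against 29, 41 and 31 without it. The paired test of the ratios cannot go below 0.125. WND2A and WND2B held 0 to 68 counts in each drought library, and 4 libraries per day limit every exact test.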
